A study of Homo sapiens with 38 samples.

Results

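The genes described here are 10 chaperone genes of the heat shock response, namely HSPA1A, HSPA1B, DNAJB1, HSPH1, HSP90AA1, HSPA8, HSPB1, BAG3, HSPD1 and HSPE1. They were chosen by symbol, as genes known to be driven by heat shock factor 1 (HSF1). The rule uses no measured value, but it was written with earlier results of these data known. All 10 were found among the 12627 genes listed. The products of 8 of them work in the cytosol and nucleus, whereas HSPD1 and HSPE1 encode the chaperonin of the mitochondrial matrix and its cochaperonin, so the name cytosolic heat shock genes holds for 8 of the 10.

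In unstressed cells, HSF1 is held inactive by chaperones. When unfolded proteins occupy these chaperones, HSF1 forms trimers, binds heat shock elements in promoters, which are alternating GAA and TTC units, and switches on the genes of HSP70, HSP40, HSP90 and small heat shock proteins. The proteins bind unfolded chains, keep them from aggregating and hand them on for refolding or for degradation, and cancer cells often hold high levels of them without heat.

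RNA came from HCT116 cells, a human colorectal carcinoma line, collected 72 h after transfection with small interfering RNA (siRNA) duplexes against VPS4A and VPS4B, the paralogous ATPases that disassemble ESCRT membrane remodeling complexes. Non-transfected cells (NT) and cells given 60 nM of the non-targeting duplex siCTRL#1 served as references, and a second non-targeting duplex, siCTRL#2, was also used, in an amount that is not given in the sources used here. Single silencing combined 30 nM of siVPS4A#1, siVPS4A#2, siVPS4B#1 or siVPS4B#2 with 30 nM of siCTRL#1, whereas combined silencing used 30 nM of each targeting duplex and no siCTRL#1. The pair siVPS4A+B#1 held siVPS4A#2 with siVPS4B#1 and the pair siVPS4A+B#2 held siVPS4A#1 with siVPS4B#2, so the pairs share no duplex. All cells were of a single line, and each targeting duplex was used in a single pair. An effect of silencing and that of a particular duplex can thus be told apart only where both pairs, or both single duplexes, were compared. Silencing also goes together with less siCTRL#1, both against siCTRL#1 cells and between a pair and its single duplexes. The part of that amount in the results was not tested.

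Of 38 libraries, 37 were used, 5 for siCTRL#1 and 4 for each other condition. The library labelled siVPS4A#1 replicate 2 was left out because it held 669257 reads, against 5090666 to 11035293 in the others. Values are levels in reads per 1000000 after scaling by the trimmed mean of M-values (TMM), and because the panel amplifies a short stretch of each transcript, levels are compared between conditions within a gene and not between genes. Differences are log2 fold changes of these levels after adding 1, from a limma fit over all 12627 genes that blocked on replicate number, and a gene was called changed at an adjusted p under 0.05. VPS4A averaged 190.0 ± 14.0 (SD, n = 5) with siCTRL#1, 2.18 ± 0.895 (SD, n = 4) with siVPS4A#1, 7.88 ± 2.22 with siVPS4A#2, 20 ± 10.6 with siVPS4A+B#1 and 5.03 ± 1.96 with siVPS4A+B#2. VPS4B averaged 20.7 ± 3.54 with siCTRL#1 and between 0.433 and 1.28 in the 4 conditions that received a VPS4B duplex, where single libraries held as few as 1 read. In bulk RNA, a change in the RNA of every cell and a change in the share of cells that express a gene cannot be told apart.

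The stretches of promoter that hold heat shock elements are shown first, since these elements are what the genes are known for. The letters searched were GAANNTTC and TTCNNGAA for 2 units and GAANNTTCNNGAA and TTCNNGAANNTTC for 3 units, in the 250 bases before each start in RefSeq's promoter table (GRCh38.p14). The 2-unit forms read the same on both strands, the 3-unit forms are each other's reverse complement, and every 3-unit match contains a match of each 2-unit form. The table held 14 windows for the 10 genes. A 2-unit form was found for 7 of the genes, in 7 windows, and a 3-unit form for 3 of them (HSP90AA1, HSPA8 and HSPD1), against 11.6% and 0.441% of all 35116 windows. Because the genes were chosen as targets of HSF1, this is a description and not a finding. No match was found in the windows of HSPH1, BAG3 and HSPE1, which says only that these letters are not in these windows.

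Each stretch below runs 5′ to 3′ on the strand of its gene, the capitals mark the GAA and TTC units of the matches, and all positions are those of its only match in GRCh37. HSPA1A and HSPA1B lie at chr6:31783189-31783246 and chr6:31795385-31795442 on the plus strand, DNAJB1 at chr19:14629224-14629311, HSPA8 at chr11:122932862-122933094, HSP90AA1 at chr14:102553417-102553494 and HSPD1 at chr2:198364767-198364814 on the minus strand. The table does not say which transcript each start belongs to. The first 4 genes are shown because they rose after siVPS4A+B#2, and the others because they hold 3-unit forms and did not. BAG3 and HSPE1 also rose but hold no match, and HSPB1, which holds a match and was not called higher, is not shown. The other windows of DNAJB1 and HSP90AA1, of other starts, held no match. A link between these elements and the levels was not tested.
HSPA1A: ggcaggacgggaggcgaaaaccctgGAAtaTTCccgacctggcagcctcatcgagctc
HSPA1B: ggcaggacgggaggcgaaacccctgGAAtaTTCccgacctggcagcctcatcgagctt
DNAJB1: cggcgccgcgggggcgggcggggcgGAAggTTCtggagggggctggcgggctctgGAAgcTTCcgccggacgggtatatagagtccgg
HSPA8: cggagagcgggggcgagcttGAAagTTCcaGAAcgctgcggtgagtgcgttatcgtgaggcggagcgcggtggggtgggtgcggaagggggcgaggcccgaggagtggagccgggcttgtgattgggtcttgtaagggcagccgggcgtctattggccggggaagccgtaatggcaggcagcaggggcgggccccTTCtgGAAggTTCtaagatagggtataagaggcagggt
HSP90AA1: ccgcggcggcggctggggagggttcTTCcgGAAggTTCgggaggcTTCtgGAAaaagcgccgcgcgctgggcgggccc
HSPD1: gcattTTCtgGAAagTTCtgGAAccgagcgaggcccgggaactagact

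The HSPA1A and HSPA1B stretches differ at few positions, and over the whole 250 bases the windows were 93.6% identical. In both genes the element lay close to the start, from base -106 to base -99 for HSPA1A and from -105 to -98 for HSPA1B. The HSPA8 elements formed 2 groups of 3 units, near either end of a span from base -230 to base -43. The HSPD1 elements, from base -245 to base -228, are at chr2:198364792-198364809. They lie between the start of that HSPD1 window (198364564) and that of the HSPE1 window (198365103), which are transcribed away from each other. Counted from this HSPE1 start they reach from base -311 to base -294, so the HSPE1 window ends short of them. The gene annotation begins HSPE1 at 198364864, nearer to these elements, so their distance from HSPE1 depends on the start used. The other HSPD1 window, of another start, held no match.

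Against siCTRL#1, the pair siVPS4A+B#2 raised 6 of the 10 genes and lowered none. The genes that rose were HSPA1A, HSPA1B, DNAJB1, HSPA8, BAG3 and HSPE1, and the median log2 fold change was 0.52 over the 10 genes and -0.02 over all genes. Of all genes, 45.2% were called in this comparison, 21.6% as higher and 23.6% as lower, so the share of the 10 genes called higher was above the background. In this and later counts, HSPA1A and HSPA1B, which are nearly identical in coding sequence, may not be independent of each other. The pair siVPS4A+B#1 gave 3 calls, with HSPA8 and BAG3 higher and HSP90AA1 lower, against 37% of all genes called, 18.3% higher and 18.7% lower. Without TMM scaling this split became 0 higher and 3 lower, as it did without replicate 4. Its median over the 10 genes was -0.06, beside -0.02 over all genes, so 3 of 10 was close to the background. For siVPS4A+B#2 the split was 5 higher and 0 lower without TMM scaling, and 5 higher and 1 lower (HSPH1) without replicate 4. Calls over all genes without TMM scaling are given at the end, and those without replicate 4 were not counted. Both comparisons share the siCTRL#1 libraries.

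**Figure D1:**
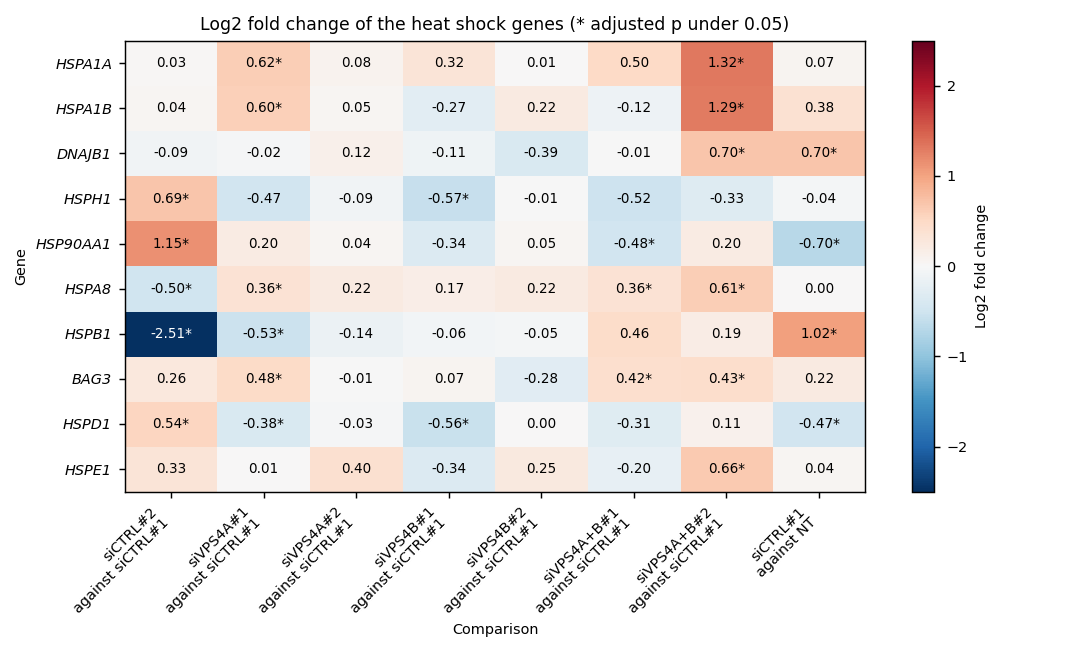
Log2 fold change (color and number) of each heat shock gene (rows) in 8 comparisons (columns), with a star where the adjusted p was under 0.05. The column of siVPS4A+B#2 holds 6 stars, all for higher levels, with 1.32 for HSPA1A and 1.29 for HSPA1B, and the value furthest from 0 is -2.51 for HSPB1 between the control duplexes.

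HSPA1A and HSPA1B encode the stress-inducible HSP70, the chaperone that is lowest without stress and rises most on heat. They are neighbors on chromosome 6, both read from the plus strand (GRCh37, 31783320 to 31785723, listed as NM_005345, and 31795515 to 31798031, listed as NM_005346), and 1919 of the 1923 bases of their coding sequences are identical (99.8%). Reads of either gene could therefore be assigned to the other, and the split between them is uncertain. HSPA1B was at 135, 152, 192 and 209.8 in the siVPS4A+B#2 libraries, against 52.7, 102, 76.4, 52.3 and 100 with siCTRL#1. All 4 pair libraries were above all 5 control libraries. The difference was 1.29 ± 0.18 on the log2 scale (SE; limma, adjusted p = 1.58e-07), a fold of 2.45. HSPA1B was higher in all 4 pairs of libraries with the same replicate number, by 0.57 to 1.98. With siVPS4A+B#1 the HSPA1B libraries were at 53.3, 80.3, 50.1 and 72.8, overlapping the range of siCTRL#1, and the difference was -0.12 (95% confidence interval -0.49 to 0.24).

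HSPA1A was counted with few reads, from 1 to 42 per library. It had 19, 13, 18 and 42 reads in the siVPS4A+B#2 libraries (3.21, 2.78, 2.88 and 5.05 per 1000000) and 7, 4, 8, 2 and 11 with siCTRL#1 (1.18, 0.481, 1.35, 0.29 and 1.04). The groups did not overlap, and the difference was 1.32 ± 0.21 on the log2 scale (limma, adjusted p = 2.41e-06). At so few reads the added constant sets the size of the change, and with 0.1 in place of 1 the same difference was 2.1. With siVPS4A+B#1, HSPA1A stood at 2.49, 0.456, 1.91 and 1.61, an overlapping range, and 0.50 ± 0.21 did not pass (limma, adjusted p = 0.0597), although without replicate 2, the lowest of these libraries, it passed with 0.68. The direct comparison of the pairs gave 1.42 ± 0.18 for HSPA1B (limma, adjusted p = 1.12e-07) and 0.82 ± 0.22 for HSPA1A (adjusted p = 0.00365), higher with siVPS4A+B#2 in 4 of 4 replicates for both.

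HSPA8 encodes the constitutive HSP70, which folds new proteins and uncoats clathrin vesicles (chromosome 11 of GRCh37, 122928197 to 122933938, minus strand, NM_006597). It rose with both pairs, in 4 of 4 replicates of each. Its levels were 1302, 1586, 1941 and 1357 with siVPS4A+B#2, 1016, 1222, 1755 and 1250.5 with siVPS4A+B#1, and 937, 894, 1297, 895 and 1025 with siCTRL#1. The siVPS4A+B#2 libraries were all above the siCTRL#1 libraries, whereas those of siVPS4A+B#1 overlapped them. The differences were 0.61 ± 0.13 (limma, adjusted p = 0.000231) and 0.36 ± 0.13 (adjusted p = 0.029). The second of these was lost without the replicate block (0.36 ± 0.19), without TMM scaling (0.19), in a fit on the compared conditions only, and without replicate 2, 3 or 4. The difference between the pairs did not pass (0.25, 95% confidence interval -0.03 to 0.53, adjusted p = 0.174).

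HSPH1 encodes HSP110, which releases nucleotide from HSP70 and helps it to undo aggregates (chromosome 13, 31709110 to 31736525, minus strand, NM_006644). It did not rise with either pair. Its levels were 12.8, 22.7, 40.7 and 19.9 with siVPS4A+B#1, 17.1, 19, 36.2 and 34.5 with siVPS4A+B#2 and 21.4, 41.6, 44.4, 20.6 and 57.8 with siCTRL#1, and the groups overlapped. The differences of -0.52 ± 0.21 (limma, adjusted p = 0.0519) and -0.33 ± 0.21 (adjusted p = 0.21) did not pass. The first of these passed with DESeq2 (-0.55), edgeR (-0.56), library totals (-0.69), an added constant of 0.1 (-0.53), the low-count filter (-0.52) and without replicate 3 (-0.66) or 4 (-0.63). The second passed without replicate 4 (-0.64, limma, adjusted p = 0.0136) and was -0.09 without replicate 2.

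**Figure D2:**
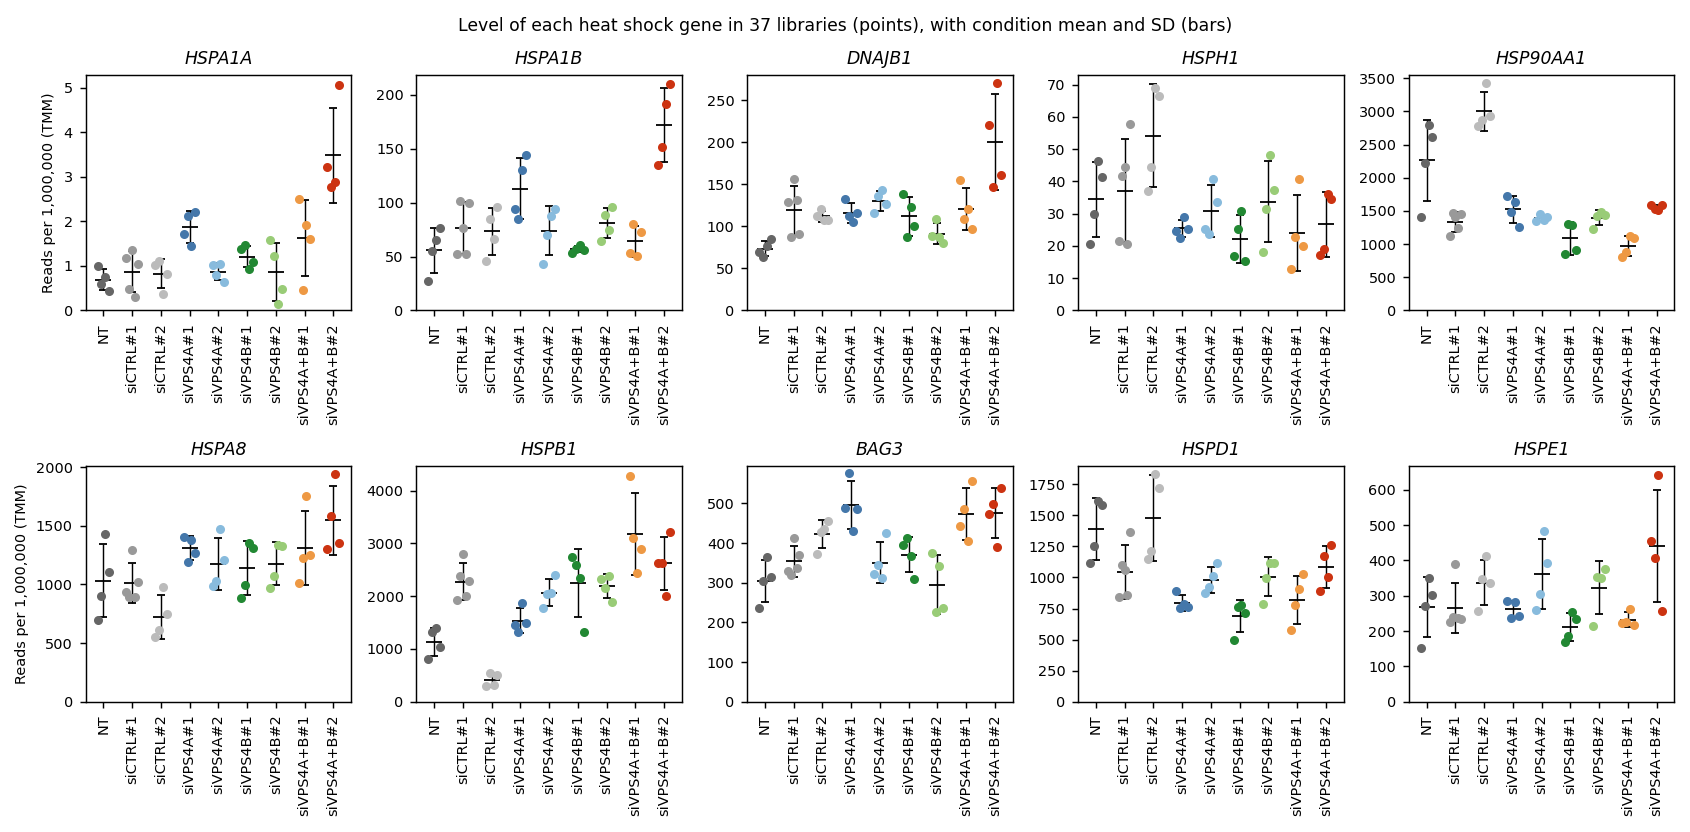
Level of each gene in reads per 1000000 after TMM scaling (vertical axes, from 0) in the 9 conditions (horizontal axes). Points are the 37 libraries, lines are means and bars are SDs. HSPA1A and HSPA1B were highest with siVPS4A+B#2, and HSPB1 was lowest with siCTRL#2, between 296 and 535.

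Cochaperones of HSP70 gave the next results. DNAJB1, the inducible HSP40 that brings substrates to HSP70 and starts its ATPase cycle (chromosome 19, 14625581 to 14671203, minus strand, NM_006145), stood at 221, 147, 270.3 and 161 with siVPS4A+B#2 and at 129, 87.3, 156, 131 and 90.5 with siCTRL#1. The ranges overlapped, since the lowest pair library was below the highest control library, yet DNAJB1 was higher in 4 of 4 replicates, by 0.29 to 0.79. The difference was 0.70 ± 0.15 (limma, adjusted p = 0.000257), a fold of 1.62. With siVPS4A+B#1 it was at 155, 109, 121 and 96.9, a difference of -0.01 (95% confidence interval -0.32 to 0.30). The pairs differed by 0.70 ± 0.16 (limma, adjusted p = 0.000633).

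BAG3, a nucleotide exchange factor of HSP70 that directs clients to autophagy (chromosome 10, 121410892 to 121437331, plus strand, NM_004281), rose by about the same amount with both pairs. Its levels were 444, 486, 405 and 557 with siVPS4A+B#1, 474, 498, 389.9 and 539 with siVPS4A+B#2 and 330.2, 320.1, 414, 336 and 370.4 with siCTRL#1. Replicate 3 of each pair was below the highest control library, which was also replicate 3, and BAG3 was higher in 3 of 4 replicates. The differences were 0.42 ± 0.15 (limma, adjusted p = 0.0239) and 0.43 ± 0.15 (adjusted p = 0.0175), and the pairs differed by 0.01 (95% confidence interval -0.30 to 0.32). Both calls were lost without TMM scaling (0.24 and 0.30) and without replicate 1, 2 or 4.

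HSP90AA1 encodes the inducible cytosolic HSP90, which holds kinases and steroid receptors ready for activation (chromosome 14, 102547079 to 102606036, minus strand, NM_001017963). It moved differently in the pairs. With siVPS4A+B#1 it was at 806, 888, 1116 and 1089, with siVPS4A+B#2 at 1586, 1525, 1507 and 1593 and with siCTRL#1 at 1121, 1468, 1408, 1242 and 1450.4. The libraries of siVPS4A+B#1 were all below and those of siVPS4A+B#2 all above the controls. The first difference, -0.48 ± 0.14, passed (limma, adjusted p = 0.00764), except in a fit on the compared conditions only and without replicate 2 (-0.40). The second, 0.20 ± 0.14, did not pass (adjusted p = 0.259), although it was positive in 4 of 4 replicates, by 0.05 to 0.50. Between the pairs HSP90AA1 differed by 0.68 ± 0.15 (limma, adjusted p = 0.000434).

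HSPB1 encodes the small heat shock protein HSP27, which holds unfolded proteins in large oligomers (chromosome 7, 75931990 to 75933612, plus strand, NM_001540). Its levels were 4269, 3100.2, 2429.8 and 2894 with siVPS4A+B#1, 2622, 2631, 2007 and 3216 with siVPS4A+B#2 and 1919, 2372, 2791, 2002 and 2281 with siCTRL#1. The groups overlapped, and the differences of 0.46 ± 0.20 (limma, adjusted p = 0.0687) and 0.19 ± 0.20 (adjusted p = 0.456) did not pass. DESeq2 and edgeR called the first, at 0.49 and 0.48, and it also passed without replicate 3. The HSPB1 promoter window holds a single 2-unit element, from base -182 to base -175, and its part in these levels was not tested.

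The mitochondrial members are HSPD1, which encodes HSP60, and HSPE1, which encodes its lid HSP10. Both lie on chromosome 2 of GRCh37, HSPD1 on the minus strand from 198351308 to 198381461 (NM_002156) and HSPE1 on the plus strand from 198364864 to 198368173 (NM_002157). HSPE1 rose with siVPS4A+B#2, where it was at 455, 408, 643 and 258, against 225, 239, 391, 237 and 234 with siCTRL#1. Replicate 4 of the pair was below the highest control library, and HSPE1 was higher in 4 of 4 replicates, by 0.12 to 1.01. The difference was 0.66 ± 0.18 (limma, adjusted p = 0.00201). HSPD1, its partner, was at 890.1, 1173, 1002 and 1264 with the same pair and at 842, 1097, 1060.1, 855 and 1369.9 with siCTRL#1, an overlapping range and a difference of 0.11 (95% confidence interval -0.18 to 0.39). With siVPS4A+B#1, HSPD1 was at 576, 776, 905 and 1024 and HSPE1 at 222, 226, 263 and 216, and neither -0.31 ± 0.14 (limma, adjusted p = 0.08) nor -0.20 ± 0.18 (adjusted p = 0.404) passed. HSPD1 passed at -0.49 both without TMM scaling (limma, adjusted p = 0.00635) and without replicate 4 (adjusted p = 0.0183). Both were higher with siVPS4A+B#2 than with siVPS4A+B#1, by 0.42 ± 0.14 (limma, adjusted p = 0.0261) and 0.86 ± 0.18 (adjusted p = 0.000299).

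**Figure D3:**
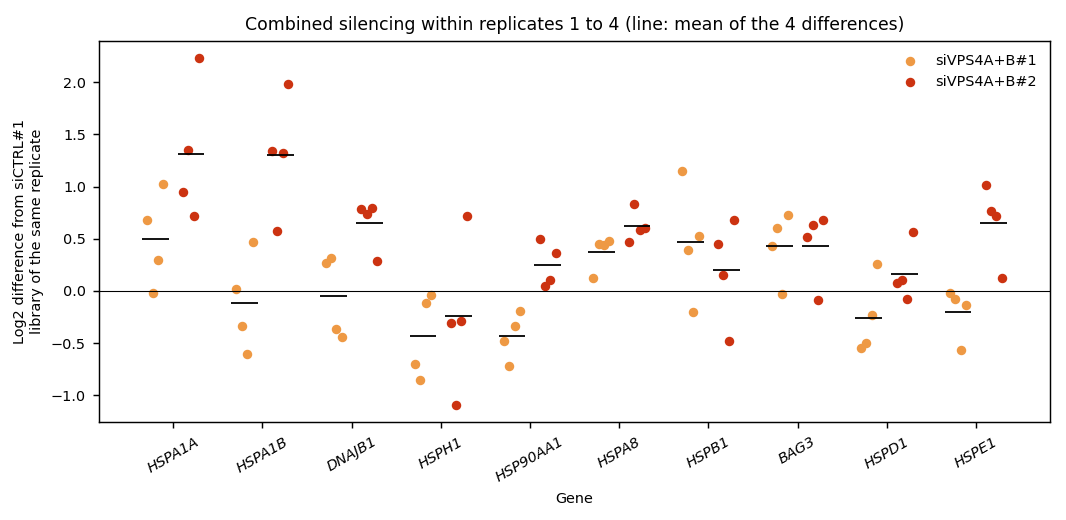
Log2 difference of each gene (horizontal axis) between a pair and the siCTRL#1 library of the same replicate number (vertical axis), for replicates 1 to 4. Points are replicates and lines their means. The siVPS4A+B#2 points of HSPA1A, HSPA1B, DNAJB1, HSP90AA1, HSPA8 and HSPE1 are all above 0, although HSP90AA1 was not called. The siVPS4A+B#1 points of HSPA1B and DNAJB1 lie on both sides of 0.

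Set directly against each other, siVPS4A+B#2 was higher than siVPS4A+B#1 for 6 of the 10 genes and lower for none, against 29.4% of all genes called, 13.7% as higher and 15.7% as lower. These were HSPA1A, HSPA1B, DNAJB1, HSP90AA1, HSPD1 and HSPE1. The remaining genes, HSPH1, HSPA8, HSPB1 and BAG3, differed by 0.19, 0.25, -0.27 and 0.01 and did not pass. The 10 genes took 0.768% ± 0.0583 (SD, n = 4) of all reads with siVPS4A+B#2, 0.658% ± 0.0221 with siVPS4A+B#1 and 0.679% ± 0.0954 (n = 5) with siCTRL#1, and the ranges of siVPS4A+B#2 (0.723% to 0.854%) and siCTRL#1 (0.564% to 0.778%) overlapped. This sum is dominated by the genes with most reads. Residual VPS4A also differed between the pairs, with 12.9, 33.9, 22.4 and 10.6 for siVPS4A+B#1 and 3.05, 7.69, 4.32 and 5.05 for siVPS4A+B#2, and its part in these differences was not tested.

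Single silencing was compared in the same way, to ask which genes respond to the loss of a single paralog. With siVPS4A#1, 6 of the 10 genes were called (HSPA1A, HSPA1B, HSPA8 and BAG3 higher, HSPB1 and HSPD1 lower), against 37% of all genes, 17.7% higher and 19.3% lower. Without the replicate block 3 passed, and with the shallow library kept 2 passed, but the shares of all genes called in these fits were not counted. HSPA1B was at 94.4, 84.5, 130.1 and 144 (0.60 ± 0.18, limma, adjusted p = 0.00673), which overlapped the siCTRL#1 range, and the call was lost without the replicate block (0.58), without replicate 4 (0.42) and with the shallow library kept (0.45). HSPA1A was at 1.71, 2.13, 1.44 and 2.20, all above siCTRL#1 (0.62 ± 0.21, limma, adjusted p = 0.0174), and was lost without replicate 4 (0.55) and with the shallow library kept (0.35). BAG3, at 488, 577, 431 and 487, was above every siCTRL#1 library (0.48 ± 0.15, limma, adjusted p = 0.00904) and stayed called in every alternative fit, though at a fold of 1.39. HSPB1, at 1448, 1329.7, 1875 and 1492, was below every siCTRL#1 library (-0.53 ± 0.20, limma, adjusted p = 0.0303), a call lost without replicate 3 or 5 or with the shallow library kept. HSPA8 (0.36 ± 0.13, adjusted p = 0.0299) and HSPD1 (-0.38 ± 0.14, adjusted p = 0.0266, at 890.0, 754, 784 and 759) passed in limma but overlapped siCTRL#1. Both were lost without the replicate block (0.39 and -0.37), in the compared conditions only and without replicate 2 of the other conditions. HSPA8 was also lost without replicate 1 or 4, and HSPD1 without TMM scaling, with the shallow library kept and without replicate 3 or 5. HSPH1, not called at -0.47 ± 0.21, was called lower without replicate 1 (-0.70) or 4 (-0.72).

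With the other duplex against the same paralog, siVPS4A#2, none of the 10 genes was called by limma, DESeq2 or edgeR, 1 was under an unadjusted p of 0.05 (HSPE1), and 0.0871% of all genes were called. HSPA1B was at 43.2, 70.4, 87.8 and 94.1 and BAG3 at 323, 346, 312 and 425, both overlapping siCTRL#1. Between the VPS4A duplexes, HSPA1B (0.55 ± 0.19, limma, adjusted p = 0.0246) and BAG3 (0.48 ± 0.16, adjusted p = 0.0172) were higher with siVPS4A#1, against 33.2% of all genes called, 16% higher and 17.2% lower. HSPA1A differed by 0.54 ± 0.23 and did not pass (adjusted p = 0.0648). HSPA8 differed by 0.14 (95% confidence interval -0.15 to 0.43) and was higher than siCTRL#1 in 4 of 4 replicates with siVPS4A#2, by 0.22 ± 0.13, which did not pass. Residual VPS4A also differed between the duplexes, as given above, and its part in these differences was not tested.

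With siVPS4B#1, HSPH1 and HSPD1 were lower and no gene was higher, against 22% of all genes called, 10.4% as higher and 11.7% as lower. HSPD1 was at 498, 761, 776 and 712, below every siCTRL#1 library (-0.56 ± 0.14, limma, adjusted p = 0.00308), and stayed called in every alternative fit, at a fold of 0.68. HSPH1, at 16.9, 25.2, 30.9 and 15.3, overlapped siCTRL#1, and its difference of -0.57 ± 0.21 (limma, adjusted p = 0.0472) was lost without the replicate block (-0.67 ± 0.30) and on leaving out any replicate. HSPE1, not called at -0.34 ± 0.18, passed in a fit on the compared conditions only (-0.35). HSP90AA1, at -0.34 ± 0.14, was not called. With siVPS4B#2 none of the 10 genes was called by limma, DESeq2 or edgeR, against 14.3% of all genes, and 1 (DNAJB1, -0.39 ± 0.15) was under an unadjusted p of 0.05. DNAJB1 passed without replicate 2 (-0.61). Between the VPS4B duplexes, HSPA1B, HSPD1 and HSPE1 were lower with siVPS4B#1, by -0.49 ± 0.18 (limma, adjusted p = 0.047), -0.56 ± 0.14 (adjusted p = 0.00384) and -0.60 ± 0.18 (adjusted p = 0.012), against 25.3% of all genes called, 12.8% higher and 12.6% lower.

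Each pair was then compared with its own single duplexes. siVPS4A+B#2 was higher than siVPS4A#1 for 6 of the 10 genes (HSPA1A, HSPA1B, DNAJB1, HSPB1, HSPD1 and HSPE1), against 27% of all genes called (13.6% higher, 13.4% lower), and higher than siVPS4B#2 for 5 (HSPA1A, HSPA1B, DNAJB1, HSPA8 and BAG3), against 40.8% (19.6% higher, 21.2% lower). HSPA1A, HSPA1B and DNAJB1 passed in both comparisons. For DNAJB1 the differences were 0.72 ± 0.16 (limma, adjusted p = 0.000928) and 1.09 ± 0.16 (adjusted p = 5.12e-07), and for HSPA1B 0.70 ± 0.19 (adjusted p = 0.00558) and 1.08 ± 0.18 (adjusted p = 9.47e-06). siVPS4A+B#1 differed from siVPS4A#2 for 4 genes, with HSPB1 and BAG3 higher and HSP90AA1 and HSPE1 lower, against 37.4% of all genes, 18.6% higher and 18.9% lower. It differed from siVPS4B#1 for none by limma, with 2 under an unadjusted p of 0.05 (HSPB1 and BAG3), against 15.9% of all genes. No other tool was run for that comparison.

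The interaction asks whether a pair differs from the sum of its single duplexes, on the log2 scale. It was called for DNAJB1 and HSPB1 in the siVPS4A+B#2 pair, both higher than the sum, against 19.7% of all genes called, 10.4% as higher and 9.27% as lower. For DNAJB1 it was 1.11 ± 0.22 (limma, adjusted p = 0.000236) and stayed called in every alternative fit, between 0.81 and 1.41. The single duplexes stood at 132, 112, 105 and 116 (siVPS4A#1) and 88.1, 109, 87.3 and 80.4 (siVPS4B#2), neither called against siCTRL#1. Against siCTRL#1, DNAJB1 was at 0.70 with the pair, -0.02 with siVPS4A#1 and -0.39 with siVPS4B#2, so the interaction holds both a rise and a lower single value. For HSPB1 it was 0.78 ± 0.28 (limma, adjusted p = 0.0476), near the threshold, and it was lost on leaving out any replicate, without TMM scaling or with the shallow library kept. Against siCTRL#1, HSPB1 was at 0.19 with the pair, not called, -0.53 with siVPS4A#1 and -0.05 with siVPS4B#2. Its interaction is thus not a called rise over siCTRL#1. HSPA1A (0.70 ± 0.30, adjusted p = 0.0983) and HSPA1B (0.48 ± 0.25, adjusted p = 0.187) did not pass, and both had also been called with siVPS4A#1 alone. Leaving out a single replicate brought in HSPA1A (0.92, without replicate 2), HSPD1 (0.65, without replicate 1) and HSPE1 (0.78, without replicate 4). In the siVPS4A+B#1 pair no interaction was called by limma, DESeq2 or edgeR, against 6.34% of all genes, 1 was under an unadjusted p of 0.05 (HSPB1, 0.66 ± 0.29), and DNAJB1 was at -0.02 (95% confidence interval -0.47 to 0.42).

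**Figure D4:**
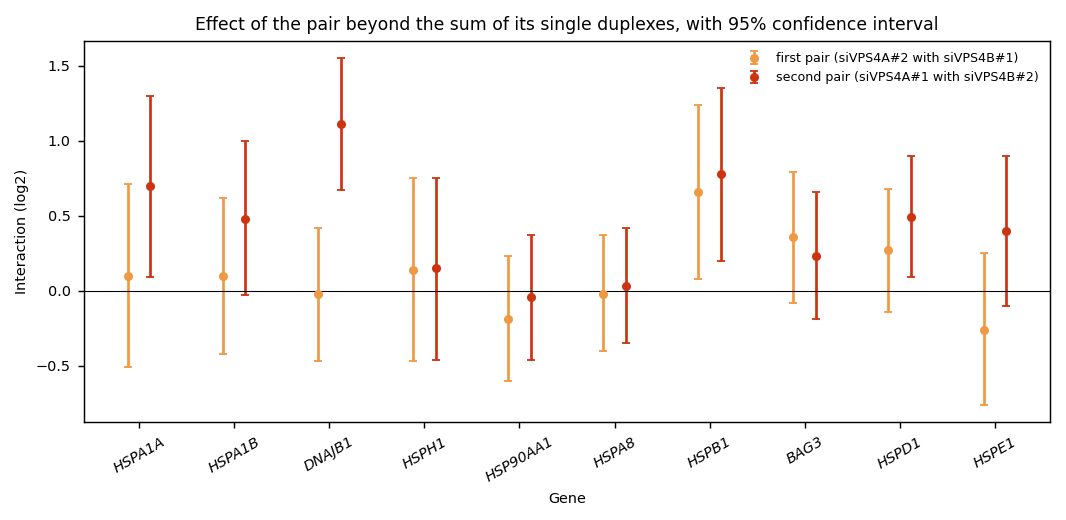
Interaction of each gene (horizontal axis) on the log2 scale (vertical axis), that is the effect of a pair less both effects of its single duplexes. Points are estimates from the limma fit and bars are 95% confidence intervals. DNAJB1 in the siVPS4A+B#2 pair, at 1.11, stands furthest from 0, and its value in the other pair is -0.02.

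Transfection with siCTRL#1 itself moved 4 of the 10 genes away from NT, against 17.1% of all genes called, 9.01% higher and 8.09% lower. DNAJB1 rose by 0.70 ± 0.15 (limma, adjusted p = 0.0013), from 69.1, 63.8, 76.9 and 84.4 in NT cells, all below the siCTRL#1 libraries. HSPB1 rose by 1.02 ± 0.20 (limma, adjusted p = 0.000338), from 812, 1312, 1389.6 and 1037, also without overlap. HSP90AA1 fell by 0.70 on the log2 scale (SE 0.14, limma, adjusted p = 0.000645), from 1408, 2224, 2794 and 2619, and HSPD1 by 0.47 (SE 0.14, adjusted p = 0.0186), from 1114, 1254, 1618 and 1583, both overlapping siCTRL#1. The differences of DNAJB1, HSPB1 and HSP90AA1 stayed called in every alternative fit, whereas that of HSPD1 was lost without the replicate block (-0.42), without TMM scaling (-0.40) and without replicate 3 or 4. HSPA1B, not called at 0.38 ± 0.18, passed without replicate 4 (0.66).

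Measured from NT in place of siCTRL#1, the count of called genes was 8 for siVPS4A+B#1 (5 higher, 3 lower, against 40.4% of all genes, 19.5% higher and 20.9% lower) and 9 for siVPS4A+B#2 (7 higher, 2 lower, against 45.3%, 21.2% higher and 24% lower). For siVPS4A+B#2 the largest differences from NT were 1.68 ± 0.18 for HSPA1B (limma, adjusted p = 1.02e-09), 1.40 ± 0.16 for DNAJB1 (adjusted p = 1.85e-09) and 1.39 ± 0.22 for HSPA1A (adjusted p = 1.56e-06), and HSP90AA1 was lower by -0.50 ± 0.15 (adjusted p = 0.00592). HSPB1 was higher than in NT cells with both pairs, by 1.48 ± 0.21 and 1.21 ± 0.21. The pairs were transfected and NT cells were not, so silencing and transfection cannot be told apart in comparisons with NT. Both comparisons share the NT libraries.

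The control duplexes differed from each other for 5 of the 10 genes, against 29.1% of all genes called, 13.1% higher and 15.9% lower. HSPB1 was at 296, 535, 309 and 500.3 with siCTRL#2 and at 1919 to 2791 with siCTRL#1, a difference of -2.51 ± 0.20 (limma, adjusted p = 8.37e-13). That is a fold of 0.175, and every library of every other condition held at least 812. HSP90AA1 went the other way, at 2781, 2866, 3426 and 2934 with siCTRL#2 (1.15 ± 0.14, limma, adjusted p = 4.91e-08), without overlap with siCTRL#1. HSPH1 (0.69 ± 0.21, limma, adjusted p = 0.0112) and HSPD1 (0.54 ± 0.14, adjusted p = 0.00322) were higher and HSPA8 (-0.50 ± 0.13, adjusted p = 0.0038) lower with siCTRL#2, and these 3 overlapped. HSPA1A, HSPA1B and DNAJB1 differed by 0.03, 0.04 and -0.09. Their 95% confidence intervals were -0.40 to 0.46, -0.32 to 0.40 and -0.40 to 0.22. BAG3 and HSPE1, also not called, differed by 0.26 (-0.04 to 0.57) and 0.33 (-0.03 to 0.68). For both genes the difference was positive in every replicate. Their siCTRL#2 levels, 372 to 455 and 256 to 411, overlapped siCTRL#1. They also overlapped siVPS4A+B#2, at 389.9 to 539 and 258 to 643. A difference of siVPS4A+B#2 from siCTRL#2 was not tested. For HSPB1 and HSP90AA1 the difference between control duplexes was thus larger in size than that of any silenced condition from siCTRL#1.

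HSF1 mRNA itself was at 276, 307, 302 and 217 with siVPS4A+B#2 and at 199, 167, 213, 197 and 169 with siCTRL#1, higher in each pair library than in each control library. The difference was 0.51 ± 0.11 (limma, adjusted p = 0.000356), and it was 0.13 ± 0.11 with siVPS4A+B#1 (adjusted p = 0.404). Between the pairs it was 0.38 ± 0.12 (limma, adjusted p = 0.0124). With siCTRL#2, HSF1 was lower than with siCTRL#1 by -0.49 ± 0.11 (limma, adjusted p = 0.00106). HSF1 is controlled mostly through its protein, which was not measured here.

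Other chaperone genes were counted by list. Of 27 measured genes for other HSP70 and HSP110 proteins, J-proteins and nucleotide exchange factors, 5 were higher and 3 lower with siVPS4A+B#1, and 6 were higher and 4 lower with siVPS4A+B#2, with medians of 0.02 and 0.06 beside -0.02 over all genes in both comparisons. The shares of all genes called, 18.3% higher and 18.7% lower with siVPS4A+B#1, 21.6% and 23.6% with siVPS4A+B#2 and 13.1% and 15.9% with siCTRL#2 against siCTRL#1, apply to every list. DNAJA1, a J-protein of the cytosol that is itself heat inducible, averaged 270.1 with siCTRL#1, 345 with siVPS4A+B#1 and 518 with siVPS4A+B#2, and rose by 0.34 ± 0.11 and 0.93 ± 0.11 (limma, adjusted p = 0.0163 and 1.1e-08). DNAJB2, a J-protein that sorts clients to the proteasome, rose by 1.27 ± 0.16 and 1.22 ± 0.16, from 10.4 to 26.9 and 25.7. DNAJC9, a histone cochaperone, fell by 0.86 and 0.85 on the log2 scale, from 36.9 to 20.5 and 20.8.

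Of the 15 measured genes of the list for HSP90 and its cochaperones, 0 were higher and 3 lower with siVPS4A+B#1, and 5 were higher and 4 lower with siVPS4A+B#2, with medians of -0.26 and 0.12. Between the control duplexes 6 of these 15 were higher with siCTRL#2 and 0 lower (median 0.34). None was called in the same direction with both pairs, so the examples that follow were chosen after their values were seen. HSP90AB1, the constitutive HSP90, ran from 2795 to 4215 with siVPS4A+B#2 and from 1381 to 2687 with siCTRL#1 (0.86 ± 0.14, limma, adjusted p = 5.5e-06), and its 0.30 ± 0.14 with siVPS4A+B#1 did not pass (adjusted p = 0.099). CDC37, which loads kinases onto HSP90, lay between 124 and 152 with siCTRL#1 and between 54.7 and 61 with siVPS4A+B#1 (-1.18 ± 0.13, limma, adjusted p = 1.34e-09) and was higher, between 134 and 228, with siVPS4A+B#2 (0.39 ± 0.13, adjusted p = 0.0106). FKBP4, an immunophilin of the steroid receptor complex, was at 440.0 to 715 with siCTRL#1 and at 116 to 167 with siVPS4A+B#2 (-1.96 ± 0.15, limma, adjusted p = 8.43e-14), whereas -0.31 ± 0.15 with siVPS4A+B#1 did not pass (adjusted p = 0.103).

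In the list of TRiC/CCT chaperonin and prefoldin genes, all 14 of which were measured, 1 was higher with siVPS4A+B#1 and 4 with siVPS4A+B#2, and none was lower. Between the control duplexes, siCTRL#2 against siCTRL#1, 8 of these 14 were higher and none lower (median 0.37), more than with either pair. PFDN4, a prefoldin subunit, rose with both, by 0.68 ± 0.13 and 0.74 ± 0.13 (limma, adjusted p = 9.59e-05 and 1.63e-05). Of 11 measured genes for other mitochondrial chaperones and proteases, 3 were higher and 3 lower with siVPS4A+B#1 and 3 higher with siVPS4A+B#2, and CLPP, a protease of the matrix, rose with both (0.40 ± 0.16 and 0.70 ± 0.16). Of the 6 other small heat shock protein genes only HSPB6 was listed, and it was called lower with both pairs at levels near the floor of 3 reads, 1.35 with siCTRL#1 and 0.402 and 0.592 with the pairs.

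Of 11 measured other genes known to be induced by heat shock, 3 were higher and 2 lower with siVPS4A+B#1 and 5 higher and 1 lower with siVPS4A+B#2, with medians of 0.11 and 0.04. DUSP1, a phosphatase of stress kinases, rose by 2.33 ± 0.20 and 2.31 ± 0.20 (limma, adjusted p = 7.24e-12 and 6.07e-12), and ATF3, a stress transcription factor, by 1.64 ± 0.25 and 2.31 ± 0.25 (adjusted p = 1.15e-06 and 5.32e-10). Both are immediate early genes that many stimuli other than heat also induce. JMJD6 rose by 0.49 ± 0.15 and 0.64 ± 0.15. Of 8 genes for heat shock factors and their regulators, 1 was higher and 1 lower with siVPS4A+B#1. These, named after their values were seen, were EEF1A1 (0.66 ± 0.17), a translation factor that takes part in the activation of HSF1, and HSF2 (-0.87 ± 0.17), which forms trimers with HSF1. With siVPS4A+B#2 the 1 that was higher was HSF1.

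The epithelial markers fixed for HCT116 cells were all listed (7 of 7), with a summed level of 4588 to 8725 over the libraries. Of the fibroblast markers 2 of 6 were listed, and their sum averaged 12.9 in NT cells and 62.9 with siVPS4A+B#2, and of the leukocyte markers 2 of 6, with 6.48 in NT cells and 136 with siVPS4A+B#1. The defining genes COL1A2, COL3A1, DCN and LUM, and PTPRC, CD3E and CD14, were not among the genes listed, and the endothelial sum, over 2 of 4 markers, did not exceed 1.94. The part of these changes in the results above was not tested.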

How the data were processed

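RNA of HCT116 cells was sequenced with the Ion AmpliSeq Transcriptome panel. The authors aligned reads to the panel's hg19 transcripts and counted them with HTSeq 0.6.0, and the submitters' processing notes also name DESeq2 1.18.1. The deposited signal is the share of a library's reads that falls on each of 12627 RefSeq identifiers, and each library sums to 1. Reads per gene were recovered from the step of 1 read. Of all values, 49.3% are printed precisely enough to place them, and 100% of these were whole within 0.1 read, although in siVPS4B#1 replicate 2 and siCTRL#1 replicate 5 rounding of the printed digits alone could give such steps. Symbols were found for 12471 genes.

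Libraries were grouped by their labels, which also give each replicate number a batch letter. The study accounted for batch, so the replicate number was a block in the main fit. Same-numbered libraries deviated together (mean correlation 0.189 over 137 pairs of libraries, against -0.0829 over 529 others). Reads were scaled to 1000000 with TMM factors (0.881 to 1.1), 1 was added, log2 was taken, and limma with an intensity trend was fitted to all 12627 genes and 37 libraries, with Benjamini-Hochberg adjustment in each comparison. Depth ran from 5090666 to 11035293 reads (median 7561496), and 3 reads, the floor, correspond to at most 0.589 per 1000000. Such floors cover only the error of counting, because reads copied by PCR do not each stand for a molecule. The series describes its replicates as biological replicates of a single line, with no further detail on the cultures. No libraries of a group agreed within sampling noise (lowest chi-square per degree of freedom 2.55 over 58 pairs of libraries).

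Alternatives were no block, DESeq2, edgeR, library totals, DESeq2 size factors, an added constant of 0.1, a low-count filter, the shallow library kept, the compared conditions only, a fold of 1.5 and leaving out each replicate. On reads simulated for siVPS4A+B#2 against siCTRL#1 over 12627 genes, the fit called 40% of 100 genes changed 1.5-fold and 100% of 100 changed 2.5-fold, with 11 wrong calls among 12427. The simulation changed far fewer genes than the 45.2% called in the data, and none at mean levels as low as that of HSPA1A. It held no replicate effect, so these shares describe the simulated setting only. The rule for named genes was the 10 members, HSF1, VPS4A, VPS4B and, per list, up to 3 genes called in the same direction with both pairs with the largest mean change. The members and the lists were chosen with earlier results of these data known. Coordinates are of GRCh37 (GENCODE annotation), and the position of the amplicons is not given in the sources used here. Software was R 4.3.3, limma 3.58.1, edgeR 4.0.16, DESeq2 1.42.0, and Python 3.11.15 with pandas 2.3.3, Biopython 1.88 and matplotlib 3.10.9.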

Additional observations from a re-analysis of the deposited data

Results flagged for a closer look

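In 2 of 90 groups of libraries, each a gene in a condition, a single library stood far from the rest of its group, and chance flags about 1 in 20 groups. HSPE1 was at 391 reads per 1000000 in siCTRL#1 replicate 3, with the other siCTRL#1 libraries between 225 and 239, and at 213 in siVPS4B#2 replicate 1, with the others between 350.4 and 375. The effect of siVPS4A#1 on DNAJB1 differed with the presence of siVPS4B#2 by 1.11 on the log2 scale, and on HSPB1 by 0.78, by the limma test of the interaction itself.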

How the results depend on the processing

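Of 90 results, 10 genes in 9 comparisons, 23 were called and 11 of these stayed called in every alternative fit, although BAG3 with siVPS4A#1 and HSPD1 with siVPS4B#1, among these 11, were under a fold of 1.5. None that was called reversed its direction, 54 values of called genes missed the threshold under an alternative, and 22 values of genes not called passed it. The counts for siVPS4A+B#2 (6), siVPS4A#2 (0), siCTRL#1 against NT (4) and the interaction in the first pair (0) stayed within 1.5 times. For siVPS4A+B#1 (3) the count was 0 with a fold of at least 1.5, 5 with DESeq2 and 5 with edgeR, 1 in the compared conditions only, and 1 to 4 on leaving out a replicate, with 1 without replicate 2. For siVPS4A#1 (6) it was 2 with the fold, 3 without the replicate block and 2 with the shallow library kept. For siVPS4B#1 (2) it was 0 with the fold, 1 without the replicate block, 1 with the shallow library kept, and 1 on leaving out any replicate. For siVPS4B#2 (0) it was 0 to 1 on leaving out a replicate, with 1 without replicate 2. For the interaction in the second pair (2) it was 1 with library totals, 1 with the shallow library kept, and 1 to 2 on leaving out a replicate, with 1 without replicate 3 or 5. The cause of these changes was not tested. Among the alternatives, calls over all genes were counted only for the other scalings, so the remaining counts cannot be set against a background. Library totals moved the median of all genes to -0.16 with siVPS4A+B#1 and -0.13 with siVPS4A+B#2, from -0.02, and the calls to 1428 higher and 3643 lower (from 2313 and 2365) and to 2009 and 3786 (from 2732 and 2974). The comparisons of silenced conditions or siCTRL#2 with NT, between duplexes, between pairs and of a pair with its single duplexes were fitted in the main way only. Depth limits HSPA1A, with 1 to 42 reads per library.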
